A study of Mus musculus with 26 samples.

Results

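The regulators of G protein signalling (RGS) are a gene family of which 10 members were described here: Rgs2, Rgs3, Rgs4, Rgs5, Rgs7, Rgs10, Rgs11, Rgs12, Rgs16 and Rgs17. They were taken by symbol, after the Ensembl identifiers of the count files were matched to a mouse gene annotation. They are 10 of 54532 rows and 10 of the 21 RGS genes that have a row. They were chosen by symbol with measured expression levels and fold changes of these libraries known, so the values below are a description, and the counts of members that passed a test are no support for the choice.

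The study sequenced aortic RNA of male mice, in 26 libraries and 6 groups. Untreated mice gave 4 libraries each of ascending aorta from heterozygous Fbn1 C1041G/+ mice, ascending aorta from wild-type littermates, descending aorta from C1041G/+ mice and descending aorta from wild-type littermates. C1041G is a missense change in fibrillin-1 that is used as a mouse model of Marfan syndrome, in which the thoracic aorta dilates. A further 10 libraries hold ascending aorta after treatment with antisense oligonucleotides (ASO): 5 from C1041G/+ mice given AGT-ASO, directed against angiotensinogen, and 5 from C1041G/+ mice given control ASO. The labels give no age, dose or duration. The series asks how genotype and aortic region differ in expression and what lowering angiotensinogen does in the mutant.

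Libraries held 17171652 to 28554356 counts. Levels are given in CPM, the conventional depth-corrected unit, with library totals scaled by the trimmed mean of M values within each experiment. The untreated and the ASO libraries were scaled apart, so levels set across them are approximate. The 2 experiments also differed in markers. The summed level of 11 endothelial markers was 1479 to 3503 CPM in untreated libraries and 260 to 516 CPM in ASO libraries. The part of this in levels set across the experiments was not tested. The score of 11 smooth muscle markers (mean log2 CPM) lay between 9.60 and 10.35 in all 26 libraries, with the highest in control ASO library 8. Markers of other tissues moved with region: the summed level of 15 heart muscle markers was 329 to 723 CPM in C1041G/+ ascending and 310 to 1297 CPM in wild-type ascending libraries, against 133 to 252 CPM in C1041G/+ descending and 82.7 to 156 CPM in wild-type descending libraries. The heart genes Myl2, Myl3, Myl7 and Nppa were at 0 in 1 to 3 of the 4 libraries of each descending group. All 9 mesothelial markers were higher in ascending aorta in both genotypes. Summed brown adipocyte markers tended the other way, with ranges that overlap. They were 11.1 to 53.5 CPM in C1041G/+ ascending against 48.0 to 135 CPM in C1041G/+ descending libraries. In wild-type mice they were 27.5 to 115 CPM in ascending against 60.8 to 247 CPM in descending libraries. Agt, which the liver mainly makes, was at 0.0961 to 1.47 CPM in AGT-ASO aortas (median 0.112) and 0.301 to 0.787 CPM in control ASO aortas (median 0.454), low levels that overlap, so aortic counts do not check the treatment labels. The part of these other tissues in the differences below was not tested, except where a fit with the heart muscle score is given.

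Receptors coupled to G proteins switch on a G protein by loading its alpha subunit with GTP. RGS proteins speed the hydrolysis of that GTP and so end the signal, and in vessels they limit the response to angiotensin II, endothelin, noradrenaline and other vasoactive ligands. The R4 subfamily (here Rgs2, Rgs3, Rgs4, Rgs5 and Rgs16) holds mostly small proteins that act on the Gi and Gq classes. The R7 subfamily (Rgs7, Rgs11) works bound to the beta subunit Gnb5, R12 (Rgs10, Rgs12) acts on Gi, and RZ (Rgs17) acts on Gi and Gz.

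The sequences shown first are the starts of the coding regions of 5 members. A cysteine codon in second place, which bears on protein turnover, sets 3 of them apart from the rest of the family. Rgs4, Rgs5 and Rgs16 are known substrates of the cysteine branch of the N-degron pathway: the first methionine is removed, the exposed cysteine is oxidised, and the protein is degraded. The first 30 coding bases of the principal transcript in GENCODE M21 are printed 5′ to 3′, with the second codon in capitals.
Rgs5: atgTGTaagggactggcagctctgccgcac
Rgs4: atgTGCaaaggacttgcaggtctgccggct
Rgs16: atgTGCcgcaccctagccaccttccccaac
Rgs2: atgCAAagtgccatgttcctggctgtccag
Rgs17: atgAGAaaacggcagcagtcacaaaatgaa
The second codons of Rgs5, Rgs4 and Rgs16 encode cysteine. Of the 21 RGS genes, 3 had a cysteine codon in second place, and all 3 were members. Transcript counts do not measure the proteins that this pathway removes.

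The promoters of Rgs5 and Rgs17 are shown because these members moved in opposite directions between genotypes. Each window runs from 250 bases before to 50 bases after the start in RefSeq (GRCm38.p6), is read on the gene's strand, and has its CG dinucleotides in capitals. The Rgs5 window is chr1:169655251-169655550 on the plus strand and the Rgs17 window is chr10:5922351-5922650 on the minus strand.
Rgs5: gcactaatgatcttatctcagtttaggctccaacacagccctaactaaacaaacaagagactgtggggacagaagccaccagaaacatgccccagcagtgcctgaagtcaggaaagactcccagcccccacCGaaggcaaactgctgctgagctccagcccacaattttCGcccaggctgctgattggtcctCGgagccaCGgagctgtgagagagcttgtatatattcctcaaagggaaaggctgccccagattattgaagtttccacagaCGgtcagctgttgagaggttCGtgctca
Rgs17: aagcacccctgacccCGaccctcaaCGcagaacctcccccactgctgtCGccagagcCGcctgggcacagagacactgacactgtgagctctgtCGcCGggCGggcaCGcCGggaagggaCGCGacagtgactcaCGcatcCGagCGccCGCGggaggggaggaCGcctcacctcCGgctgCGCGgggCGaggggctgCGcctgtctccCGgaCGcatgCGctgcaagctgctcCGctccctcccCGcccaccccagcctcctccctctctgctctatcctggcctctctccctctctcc
The Rgs5 window holds 6 CG dinucleotides and the Rgs17 window 27, against a median of 7 over 32851 promoters. Both strands were searched for the AP-1 site TGANTCA, the TATA box TATAAA, the SP1 site GGGCGG, the RBPJ site GTGGGAA, the cyclic AMP response element TGACGTCA and the CArG box. A CArG box can hold a TATA box within it, and matches of different motifs were counted apart. None of these letters was found in the Rgs5 window. The Rgs17 window held TGACTCA, an AP-1 match, 122 bases before the start, and 2 SP1 matches. AP-1 letters are in 7.81% of all promoters and SP1 letters in 35.7%. Of the 10 members, 9 had at least 1 window. An Rgs12 window also held TGACTCA, 22 bases before the start. Windows of Rgs2, Rgs3, Rgs10, Rgs12 and Rgs16 held SP1 letters as well. TATAAA was found in the Rgs4 window, 31 bases before the start, and in both Rgs3 windows, 100 and 177 bases before their starts, and 13.6% of all promoters hold it at any place in the window. The other shares were 1.79% for the cyclic AMP response element, 6.38% for RBPJ and 1.63% for the CArG box, with no match in Rgs5 or Rgs17.

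Across the family, Rgs5 was the member that differed most between groups, and Rgs17 moved the other way with genotype. In the ascending aorta, Rgs5 fell in C1041G/+ mice relative to wild type. In the descending aorta, Rgs5 fell and Rgs17 rose in C1041G/+ mice. Between regions, Rgs5 and Rgs7 were lower and Rgs16 higher in the ascending than in the descending aorta of both genotypes, Rgs17 was lower there in C1041G/+ mice, and Rgs3 was lower there in wild-type mice. No member passed the test between AGT-ASO and control ASO.

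Tests were edgeR quasi-likelihood F tests over all genes tested, with Benjamini-Hochberg adjusted p below 0.05 as the threshold, and all 10 members passed both filters on low counts. For genotype in the ascending aorta 1 of 10 members passed, where 2.19% of 15645 genes did, and 2 members had groups that did not overlap, where 9.5% of genes did. For genotype in the descending aorta 2 members passed (1.21% of genes) and 2 did not overlap (7.29% of genes). For region, 4 members passed in C1041G/+ mice (9.92% of genes) and 4 in wild-type mice (11.1% of genes). Non-overlapping groups were seen for 4 members in each genotype, against 14.4% of genes in C1041G/+ and 14.5% in wild-type mice. For the interaction of genotype and region 0 members passed (0.00639% of genes), with 0 in DESeq2 and 1 member, Rgs17, at an unadjusted p under 0.05. For AGT-ASO against control ASO 0 members passed (0.0668% of 14981 genes) and 0 had non-overlapping groups (2.46% of genes). In DESeq2 2 members passed, where 289 of all genes did, against 10 of all genes in edgeR. In edgeR 2 members, Rgs2 and Rgs17, were at an unadjusted p under 0.05, as were at least 1752 of all genes. The median log2 fold change of the members was -0.17 for genotype in the ascending aorta, against -0.01 over all genes tested, and lay between -0.32 and -0.06 in the other comparisons.

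**Figure D1:**
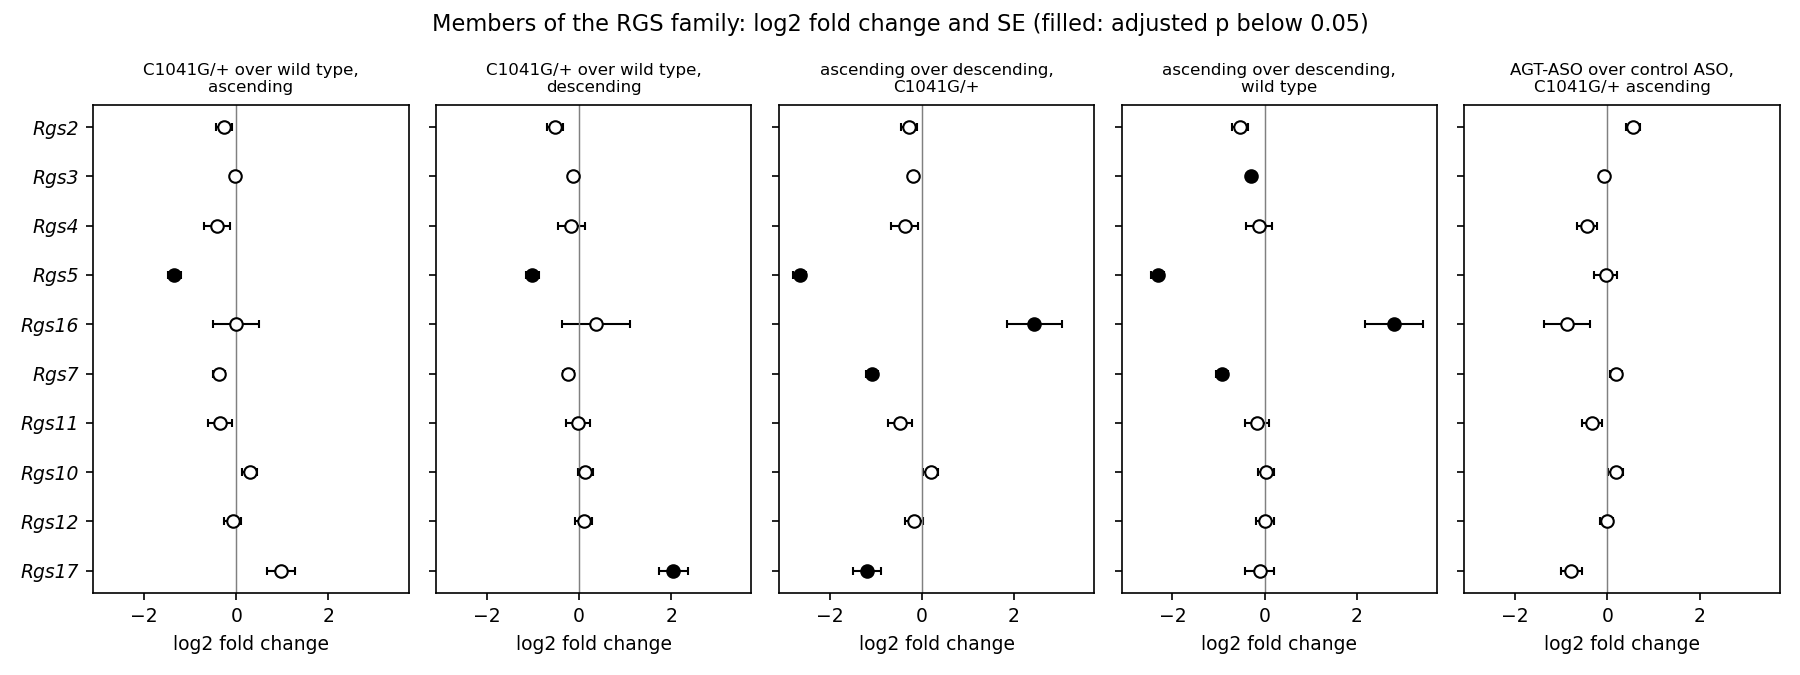
Log2 fold change of the 10 members in 5 comparisons, with members down the page by subfamily; points are the fitted values, bars the SE, and filled points had an adjusted p below 0.05. Rgs5 lies left of 0 in both genotype and both region panels, at -1.34, -1.01, -2.65 and -2.32, and no point is filled in the panel for AGT-ASO over control ASO.

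Rgs5 is an R4 protein of arterial smooth muscle and pericytes that restrains signalling through Gq and Gi. Its gene lies on chromosome 1 (GRCm38, 169655501 to 169695813, plus strand). In the ascending aorta, Rgs5 had 72.6, 69.8, 108 and 99.2 CPM in C1041G/+ mice, against 222, 227, 227 and 211 CPM in wild-type mice. The highest mutant library lay below the lowest wild-type library. The log2 fold change was -1.34 ± 0.14 (SE, adjusted p = 6.1e-05), so that C1041G/+ aortas held 39.4% of the wild-type level. The 95% interval of the ratio was 0.327 to 0.475 by a normal approximation, which is too narrow for so few libraries.

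In the descending aorta, Rgs5 had 522, 494, 581 and 604 CPM in C1041G/+ mice, against 1192, 1331, 923 and 989 CPM in wild-type mice. These groups did not overlap either, and the mutant level was 49.6% of wild type (log2 fold change -1.01 ± 0.14, adjusted p = 5e-04). The 2 genotype effects were not shown to differ: the interaction was -0.33 ± 0.19 on the log2 scale (unadjusted p = 0.099, adjusted p = 0.99). In bulk RNA, fewer cells of a type and less RNA per cell cannot be told apart.

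The difference of Rgs5 between regions was larger than that between genotypes. The ascending level was 0.159 of the descending level in C1041G/+ mice (-2.65 ± 0.14, adjusted p = 8.8e-10) and 0.2 of it in wild-type mice (-2.32 ± 0.14, adjusted p = 3.5e-09). Libraries of the 2 regions that carry the same number in their labels can be set side by side. That number is taken here to mark the mouse, which is an assumption. The descending library was 7.19, 7.07, 5.38 and 6.09 times the ascending one in C1041G/+ mice 2, 4, 6 and 8, and 5.37, 5.85, 4.07 and 4.68 times in wild-type mice 1, 3, 5 and 7. All 8 same-number pairs had the higher level in the descending aorta. The order of the 4 untreated groups, from high to low, was wild-type descending, C1041G/+ descending, wild-type ascending and C1041G/+ ascending, and no neighbours in that order overlapped.

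Rgs5 is also a marker of pericytes, so other pericyte markers are given beside it. The summed level of 9 of them was 795 to 1084 CPM in C1041G/+ ascending, 772 to 1108 CPM in wild-type ascending, 969 to 1160 CPM in C1041G/+ descending and 1037 to 1200 CPM in wild-type descending libraries, ranges that overlap between genotypes in both regions. By genotype 2.19% of all genes passed in the ascending and 1.21% in the descending aorta. Of the 7 pericyte markers that were tested, 0 were lower and 1 was higher in C1041G/+ mice in each region. That gene was Notch3, a receptor of mural cells, which rose in the ascending aorta (0.53 ± 0.13, adjusted p = 0.042) and in the descending aorta (0.87 ± 0.13, adjusted p = 0.0015). Kcnj8, a potassium channel subunit of pericytes and smooth muscle, was lower in the ascending aorta in C1041G/+ (-0.67 ± 0.18, adjusted p = 0.023) and wild-type mice (-0.70 ± 0.18, adjusted p = 0.015). Cox4i2, a subunit of the respiratory chain on the same list, was higher in wild-type ascending aorta (0.93 ± 0.22, adjusted p = 0.0077). Once the heart muscle score was a term of the fit, the genotype difference of Rgs5 in the ascending aorta was -1.27 ± 0.14 (adjusted p = 0.0078).

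The summed level of endothelial markers also moved with region. The summed level of 11 of them was 1479 to 2286 CPM in C1041G/+ ascending and 1653 to 2155 CPM in wild-type ascending libraries, and 2272 to 2601 CPM in C1041G/+ descending and 2636 to 3503 CPM in wild-type descending libraries. By this sum the genotypes did not overlap in the descending aorta, where it was lower in C1041G/+ mice, as Rgs5 was. The mean log2 CPM of the 11 did overlap there, at 6.5 to 6.63 in C1041G/+ and 6.5 to 6.92 in wild-type libraries. That score overlapped between regions too, at 6.44 to 6.95 in C1041G/+ ascending and 6.66 to 6.91 in wild-type ascending libraries. By genotype 0 of the 11 passed in edgeR in either region, with 0 in the ascending and 6 in the descending aorta at an unadjusted p under 0.05. Between regions 2 were higher and 1 lower in the ascending aorta of C1041G/+ mice, and 2 higher and 6 lower in that of wild-type mice. These counts compare with 9.92% and 11.1% of all genes tested in C1041G/+ and wild-type mice. The part of endothelial RNA in Rgs5 was not tested.

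Under the antisense oligonucleotides, Rgs5 had 183, 167, 98.9, 172 and 99.2 CPM with AGT-ASO, against 193, 159, 144, 150 and 92.5 CPM with control ASO. Both groups spanned nearly the same range. The log2 fold change was -0.04 ± 0.25 (adjusted p = 0.97). Its 95% interval by the same normal approximation, again too narrow, was -0.52 to 0.45.

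Rgs17 belongs to the RZ subfamily, whose members carry a string of cysteines near the start of the protein, and acts on Gi and Gz. Its gene lies on chromosome 10 (5825663 to 5922400, minus strand). In the descending aorta, Rgs17 had 29.4, 25.8, 21.1 and 27.6 CPM in C1041G/+ mice, against 5.60, 11.2, 2.80 and 5.32 CPM in wild-type mice. The groups were far apart, and the mutant level was 4.14 times that of wild type (log2 fold change 2.05 ± 0.31, adjusted p = 0.0026). In the ascending aorta, Rgs17 had 12.3, 9.08, 9.93 and 14.1 CPM in C1041G/+ mice, against 5.33, 8.13, 3.42 and 6.28 CPM in wild-type mice. These groups did not overlap, but the difference did not pass the test over all genes (0.97 ± 0.31, adjusted p = 0.13). DESeq2 gave it an adjusted p of 0.035, and all its alternatives lay between 0.035 and 0.33.

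Within C1041G/+ mice, Rgs17 was at 43.8% of the descending level in the ascending aorta (-1.19 ± 0.30, adjusted p = 0.017). This call was lost without the ascending library of mouse 4 (0.056), without that of mouse 6 (0.055), without both libraries of mouse 2 (0.094) and with no count filter (0.068), within a range of 9.3e-06 to 0.094. In wild-type mice the regions overlapped (-0.11 ± 0.32, adjusted p = 0.92). The interaction of genotype and region was -1.08 ± 0.44 (unadjusted p = 0.026, adjusted p = 0.88). With the mouse as a fixed replicate block it was -1.16 ± 0.19 (adjusted p = 0.038, range over its alternatives 0.038 to 1), which is the 1 interaction of a member that passed in any fit.

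With AGT-ASO, Rgs17 had 11.4, 18.6, 14.5, 15.2 and 15.7 CPM, against 13.8, 23.5, 36.6, 27.9 and 28.1 CPM with control ASO. Only control ASO library 8 lay within the AGT-ASO range; the other 4 control libraries lay above all AGT-ASO libraries. The difference was -0.78 ± 0.22 on the log2 scale and did not pass (adjusted p = 0.21). It passed in DESeq2 (adjusted p = 0.015) and without control ASO library 8 (-0.94 ± 0.14, adjusted p = 0.0063), and its alternatives ranged from 0.0063 to 0.84. The summed heart muscle markers were 346 to 850 CPM with AGT-ASO and 819 to 1956 CPM with control ASO. Once the heart muscle score was a term of the fit, the difference of Rgs17 was -0.38 ± 0.28 (adjusted p = 0.84).

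**Figure D2:**
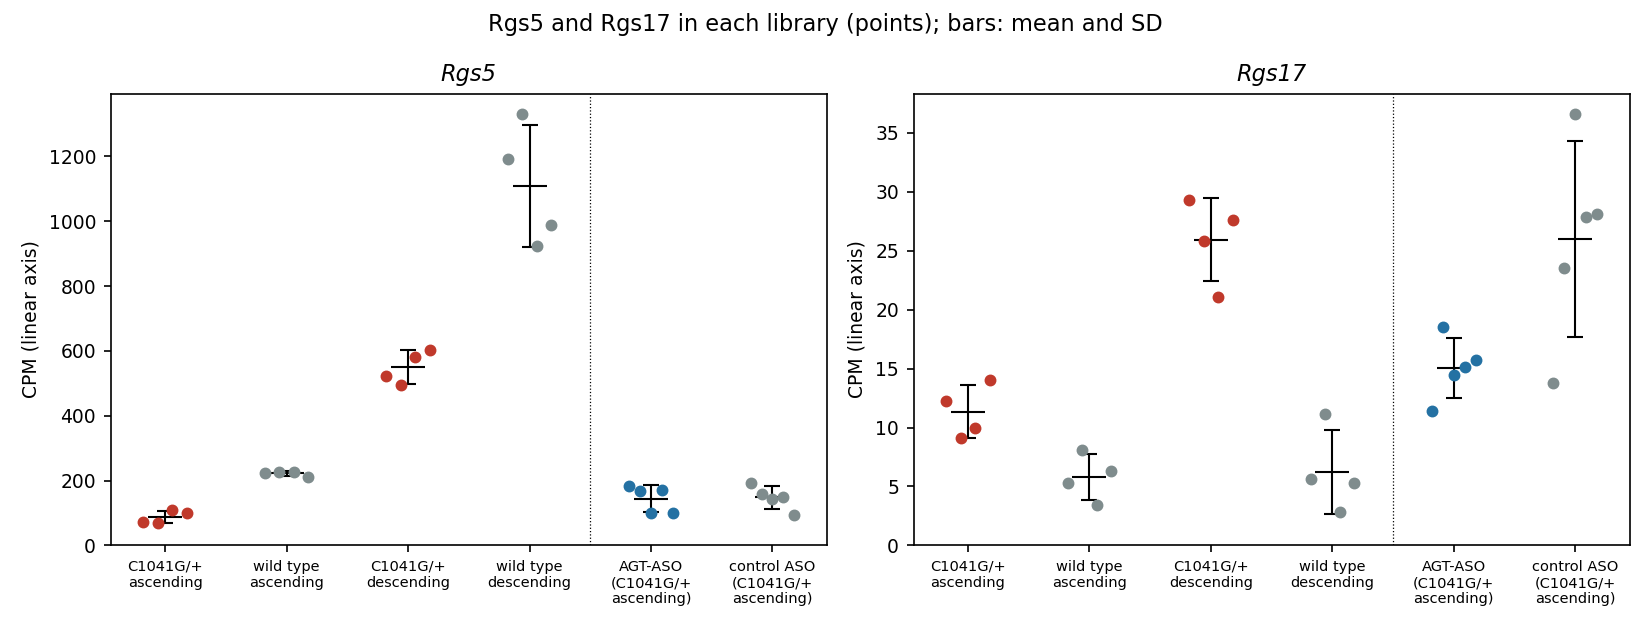
CPM of Rgs5 (left) and Rgs17 (right) on linear axes in each of the 26 libraries by group; points are libraries, and bars are the mean and SD of 4 untreated or 5 ASO libraries. Rgs5 lies lower and Rgs17 higher in C1041G/+ than in wild-type aortas of the same region, while the AGT-ASO and control ASO groups overlap for both.

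Rgs4, the R4 member next to Rgs5, is known from heart, nervous system and vascular smooth muscle. It lies on chromosome 1 at 169741477 to 169747642 on the minus strand, tail to tail with Rgs5, with 45663 bases and 0 annotated genes between their ends. In the ascending aorta, Rgs4 had 97.1, 93.3, 185 and 181 CPM in C1041G/+ mice, against 165, 136, 202 and 239 CPM in wild-type mice. The groups overlapped, with mutant mice 2 and 4 below every wild-type library (-0.42 ± 0.29, adjusted p = 0.52). In the descending aorta, it had 149, 108, 234 and 227 CPM in C1041G/+ mice, against 144, 199, 234 and 230 CPM in wild-type mice (-0.17 ± 0.29, adjusted p = 0.91).

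The spread of Rgs4 within groups followed the mouse number: mutant mice 2 and 4 were low and mutant mice 6 and 8 high in both regions. Between regions of C1041G/+ mice the difference was -0.37 ± 0.29 (adjusted p = 0.56), and with the mouse as a fixed replicate block it was -0.37 ± 0.10 (adjusted p = 0.027, range over alternatives 0.027 to 0.82). Under the oligonucleotides, Rgs4 had 79.2, 98.5, 82.3, 79.2 and 86.9 CPM with AGT-ASO, against 192, 111, 94.8, 91.1 and 87.7 CPM with control ASO (-0.44 ± 0.22, adjusted p = 0.44). Control ASO library 8 stood apart from the other 9, and without it the difference was -0.17 ± 0.083 (adjusted p = 0.32, range over alternatives 0.32 to 0.63).

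Rgs2 prefers Gq and limits the vasoconstrictor response to angiotensin II, and mice without it are hypertensive. In the descending aorta, Rgs2 had 18.1, 25.1, 14.9 and 16.8 CPM in C1041G/+ mice, against 32.1, 19.7, 29.3 and 26.6 CPM in wild-type mice. Mutant mouse 4 and wild-type mouse 3 made the groups overlap (-0.52 ± 0.17, adjusted p = 0.20). In the ascending aorta it had 12.3, 20.02, 15.5 and 13.8 CPM in C1041G/+ mice, against 16.9, 17.97, 20.04 and 19.1 CPM in wild-type mice (-0.26 ± 0.17, adjusted p = 0.49).

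Between regions, Rgs2 averaged 18.5 ± 1.37 CPM in wild-type ascending and 26.9 ± 5.31 CPM in wild-type descending aorta (SD, n = 4 each; log2 fold change -0.54 ± 0.17, adjusted p = 0.054). It passed in 4 of 13 alternatives: in DESeq2 (adjusted p = 0.027), in edgeR on the 2 wild-type groups alone (0.027), without the descending library of mouse 3 (0.017), and with the mouse as a fixed replicate block (-0.52 ± 0.12, 0.0067), in a range of 0.0067 to 0.17. With AGT-ASO, Rgs2 had 19.6, 20.9, 13.4, 15.7 and 17.9 CPM, against 11.3, 9.16, 10.7, 15.2 and 12.95 CPM with control ASO. AGT-ASO library 18 lay within the control range, and the other 4 lay above it. The difference of 0.56 ± 0.15 did not pass (adjusted p = 0.15), although it passed in DESeq2 (0.033) and with no count filter (0.015), in a range from 0.015 to 0.33.

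Rgs3, whose long forms carry added domains before the RGS domain, averaged 80.8 ± 8.90 CPM in C1041G/+ ascending, 81.8 ± 5.47 CPM in wild-type ascending, 92.0 ± 5.25 CPM in C1041G/+ descending and 101 ± 13.1 CPM in wild-type descending aorta (SD, n = 4 each). In wild-type mice, Rgs3 was lower in the ascending aorta by a small step (-0.30 ± 0.09, adjusted p = 0.045, groups not overlapping). That call was lost in 6 alternatives, 5 of which each left out 1 wild-type library (all but ascending 3, descending 3 and descending 7), with adjusted p from 0.009 to 0.20 over all alternatives. Between genotypes, Rgs3 differed by -0.02 ± 0.09 in the ascending aorta (adjusted p = 0.95) and -0.13 ± 0.09 in the descending aorta (adjusted p = 0.69).

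Rgs16, an R4 member that lymphocytes induce on activation, was near the limit of detection, at 1 to 64 counts in a library. It had 2.73, 0.44, 1.96 and 1.00 CPM in C1041G/+ ascending and 0.59, 1.72, 1.73 and 2.11 CPM in wild-type ascending libraries, against 0.06, 0.40, 0.21 and 0.44 CPM in C1041G/+ descending and 0.11, 0.15, 0.17 and 0.42 CPM in wild-type descending libraries. The regions met in C1041G/+ mice, where ascending mouse 4 equalled the highest descending library to 2 decimals, and were apart in wild-type mice. The ascending aorta was higher by 2.44 ± 0.60 in C1041G/+ (adjusted p = 0.012) and by 2.80 ± 0.63 in wild-type mice (adjusted p = 0.0049) on the log2 scale.

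In C1041G/+ mice that call was lost without the ascending library of mouse 2 (2.00 ± 0.61, adjusted p = 0.057) and without both libraries of that mouse (1.68 ± 0.61, adjusted p = 0.14), in a range of 0.0015 to 0.14. The ascending library of mouse 2 also held the highest summed level of 12 lymphocyte markers, 81.7 CPM, against 6.46 to 17.2 CPM in the other 3 C1041G/+ ascending libraries and 5.51 to 29.2 CPM in C1041G/+ descending libraries. None of the 12 passed the edgeR test between regions in C1041G/+ mice, with 1 at an unadjusted p under 0.05. In wild-type mice their sum was 5.51 to 31.5 CPM in ascending and 8.70 to 21.2 CPM in descending libraries, and 2 of the 12 passed, the B cell genes Cd79b (-1.56 ± 0.40, adjusted p = 0.015) and Ms4a1 (-1.97 ± 0.58, adjusted p = 0.035), both lower in the ascending aorta where Rgs16 was higher. Of all genes tested, 11.1% passed between regions in wild-type mice. The part of lymphocytes in Rgs16 was not tested. Genotype made no detectable difference at this depth in either region (0.00 ± 0.50 and 0.37 ± 0.73). Rgs16 had 0.87, 0.62, 0.55, 0.33 and 0.06 CPM with AGT-ASO, against 1.04, 1.16, 0.79, 0.50 and 1.01 CPM with control ASO (-0.88 ± 0.50, adjusted p = 0.49), with overlap. An antisense RNA shares 10.1% of the exon length of Rgs16, but had 3 counts over all libraries.

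**Figure D3:**
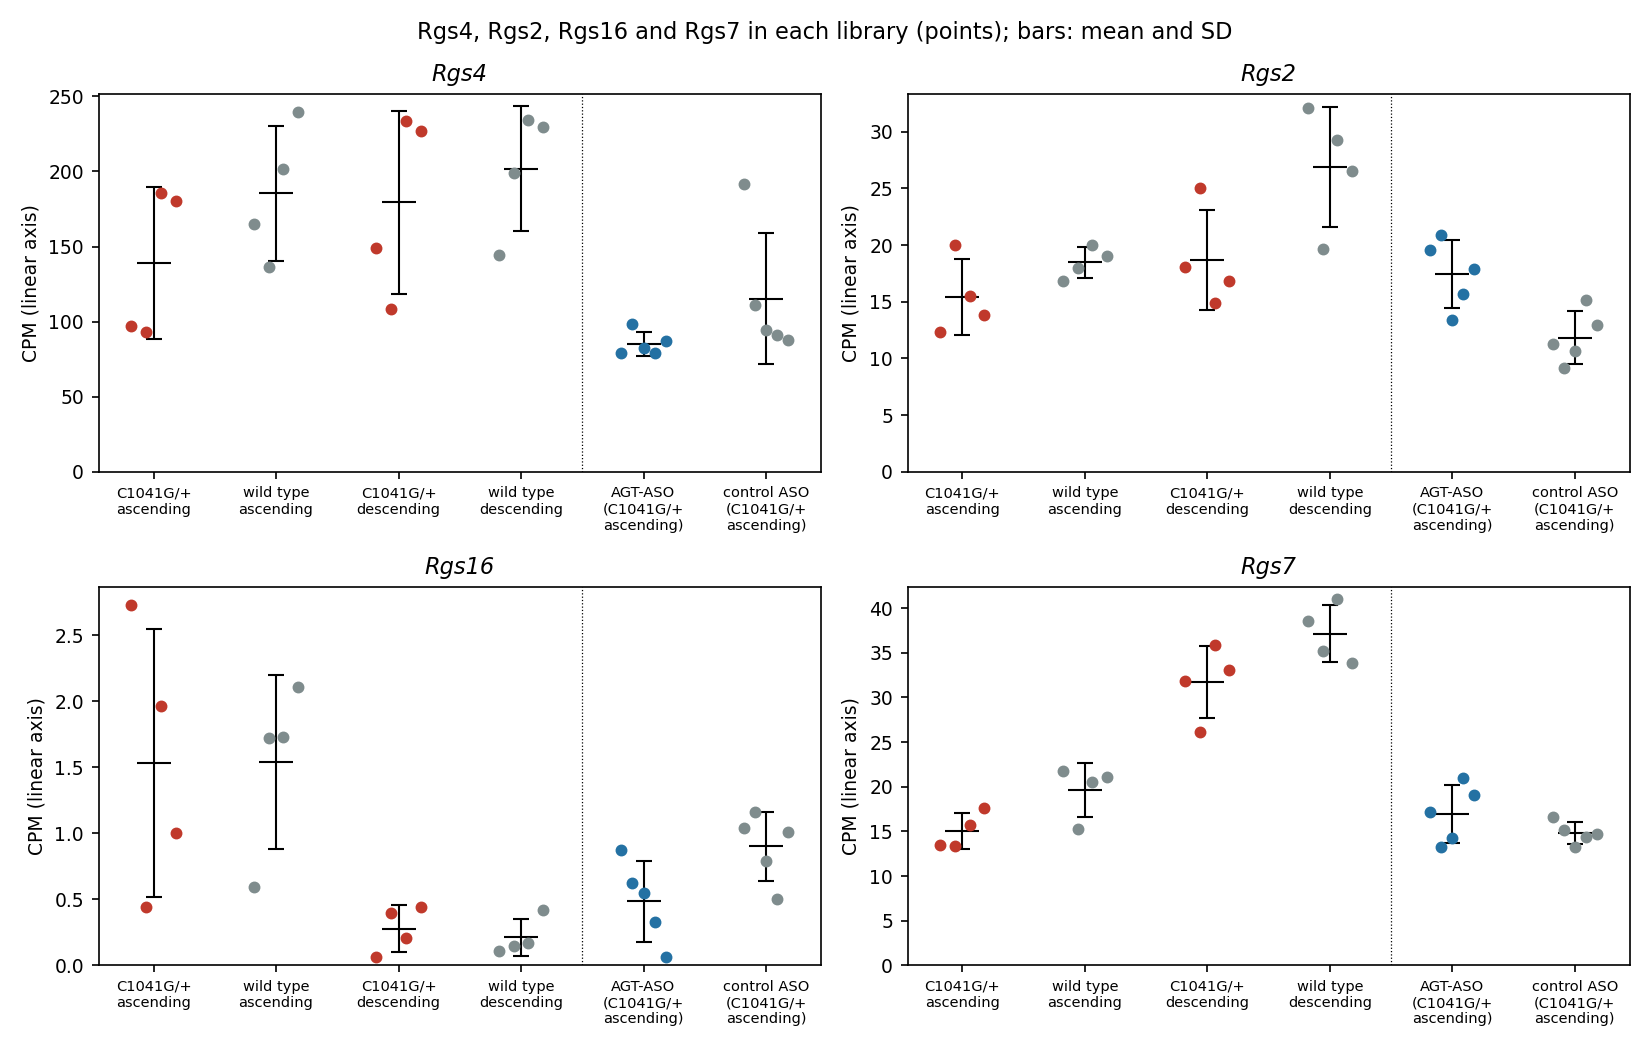
CPM of Rgs4, Rgs2, Rgs16 and Rgs7 on linear axes in each library by group; points are libraries, and bars are the mean and SD of 4 untreated or 5 ASO libraries. Rgs7 is lower and Rgs16 higher in ascending than in descending groups, and 1 control ASO library stands at 192 CPM for Rgs4 with the other control libraries at 87.7 to 111 CPM.

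Rgs7, an R7 member best known from neurons, was lower in the ascending aorta of both genotypes. It had 13.5, 13.3, 15.8 and 17.6 CPM in C1041G/+ ascending libraries, against 31.9, 26.1, 35.8 and 33.1 CPM in C1041G/+ descending libraries. The ascending level was 47.4% of the descending one (-1.08 ± 0.13, adjusted p = 1.1e-05), with no overlap. In wild-type mice, Rgs7 had 21.8, 15.2, 20.5 and 21.1 CPM in ascending libraries, against 38.6, 35.2, 41.0 and 33.9 CPM in descending libraries. The groups again did not overlap (52.8%, -0.92 ± 0.13, adjusted p = 4.7e-05). Summed nerve and Schwann cell markers ran the other way, at 198 to 248 CPM in C1041G/+ ascending against 108 to 125 CPM in C1041G/+ descending libraries. In wild-type mice they were 166 to 177 CPM in ascending against 106 to 129 CPM in descending libraries. The median endothelial and brown adipocyte sums were higher in the descending aorta of both genotypes, as Rgs7 was. The part of these tissues in Rgs7 was not tested.

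Between genotypes, Rgs7 differed by -0.38 ± 0.13 in the ascending aorta (adjusted p = 0.13) and -0.23 ± 0.12 in the descending aorta (adjusted p = 0.55). It had 17.2, 13.3, 14.3, 20.95 and 19.1 CPM with AGT-ASO, against 16.7, 15.2, 13.3, 14.4 and 14.7 CPM with control ASO, and the groups overlapped (0.19 ± 0.13, adjusted p = 0.56). The other R7 member, Rgs11, found in retina and brain, was low in all groups. It averaged 2.08 ± 0.384 CPM in C1041G/+ ascending, 2.66 ± 0.543 CPM in wild-type ascending, 2.91 ± 0.483 CPM in C1041G/+ descending and 2.97 ± 1.13 CPM in wild-type descending aorta, and 4.80 ± 0.642 CPM with AGT-ASO against 6.10 ± 2.08 CPM with control ASO. No comparison of Rgs11 passed, with log2 fold changes between -0.48 and -0.03.

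Over the means of all 6 groups, untreated and ASO, the R12 members had the smallest ranges. These were 0.54 for Rgs10 and 0.14 for Rgs12 on the log2 scale. By genotype in the ascending aorta Rgs10 differed more (0.29 ± 0.17) than Rgs3 (-0.02 ± 0.09). Rgs10, a short protein of immune cells and microglia, lay at 16.8 to 17.2 CPM in C1041G/+ ascending, 11.9 to 17.5 CPM in wild-type ascending, 13.8 to 15.5 CPM in C1041G/+ descending and 9.26 to 18.8 CPM in wild-type descending libraries. Rgs12, a large protein that also binds inactive Gi, lay between 7.39 and 13.8 CPM in all 26 libraries. Neither passed in any comparison, and their log2 fold changes in the 5 pairwise comparisons lay between -0.17 and 0.29. The regions of C1041G/+ mice did not overlap for Rgs10 (0.19 ± 0.17, adjusted p = 0.63). The group means of Rgs12 spanned 0.14 on the log2 scale, the least of the 10 members, against 3.68 for Rgs5.

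Per kilobase of exon, the family's summed level was 102 ± 19.3 in C1041G/+ ascending and 145 ± 11.3 in wild-type ascending aorta, and 222 ± 29.5 in C1041G/+ descending and 352 ± 33.2 in wild-type descending aorta (CPM per kilobase, SD, n = 4 each). Rgs5 took 18.8% of that sum in C1041G/+ ascending and 33.8% in wild-type ascending aorta, and 54.7% in C1041G/+ descending and 69.0% in wild-type descending aorta. Rgs4 took 42.9% and 40.8% in the C1041G/+ and wild-type ascending aorta, where it was the most abundant member, and 25.5% and 18.8% in the C1041G/+ and wild-type descending aorta, where it was second to Rgs5. Without Rgs5, the sum was 82.7 ± 15.1 in C1041G/+ ascending, 96.6 ± 12.5 in wild-type ascending, 101 ± 18.5 in C1041G/+ descending and 108 ± 10.8 in wild-type descending aorta, values whose spreads overlap. With AGT-ASO the whole sum was 90.4 ± 12.4, and with control ASO 102 ± 19.2 (SD, n = 5 each), with 34.5% and 31.7% from Rgs5.

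**Figure D4:**
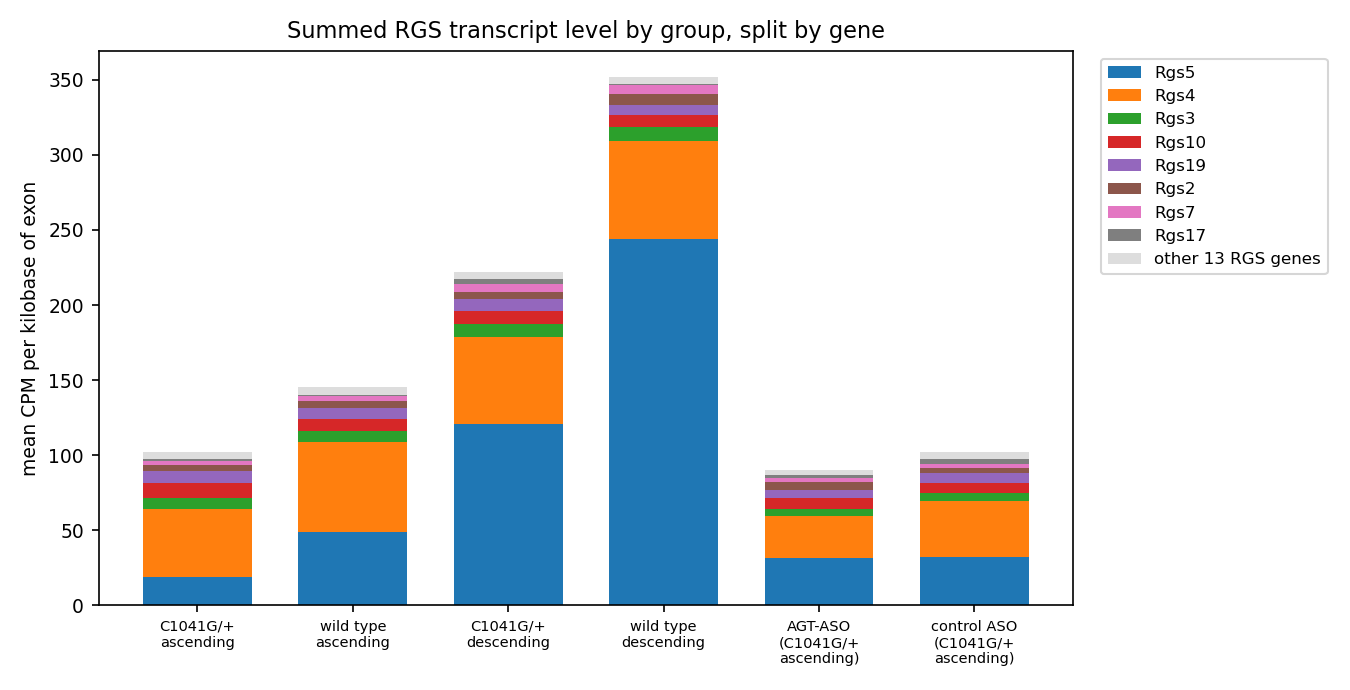
Mean CPM per kilobase of exon summed over the 21 RGS genes in each group, split by gene from Rgs5 at the bottom upward; each bar starts at 0. Rgs5 makes up most of the difference in height between the 4 untreated groups, from 18.8% of the sum in C1041G/+ ascending to 69.0% in wild-type descending aorta.

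Of the 11 RGS genes outside the 10 members, 5 had enough counts to be tested in the untreated libraries and 4 in the ASO libraries. The 1 that passed was Rgs6, an R7 gene that in heart and neurons dampens signalling by Gi. It passed by genotype in the ascending aorta, where 2.19% of all genes did, and by region in wild-type mice, where 11.1% did. It had 1.41, 2.07, 2.51 and 4.26 CPM in C1041G/+ ascending libraries, against 4.59, 7.99, 7.44 and 8.05 CPM in wild-type ascending libraries. The groups did not overlap (-1.46 ± 0.31, adjusted p = 0.018). In wild-type mice Rgs6 was higher in the ascending aorta than in the descending aorta, where it had 3.86, 4.12, 2.80 and 1.74 CPM (1.16 ± 0.31, adjusted p = 0.018). In the 4 C1041G/+ descending libraries it lay at 3.06 to 5.18 CPM, and the regions of C1041G/+ mice differed by -0.74 ± 0.32 (ascending over descending, adjusted p = 0.18). The interaction of genotype and region for Rgs6 was -1.91 ± 0.44 (unadjusted p = 0.00045, adjusted p = 0.36). Of the 15 heart muscle markers, 10 were higher in the ascending aorta of C1041G/+ mice and 13 in that of wild-type mice, and 0 were lower. These counts compare with 9.92% and 11.1% of all genes tested in C1041G/+ and wild-type mice. By genotype in the ascending aorta 0 of the 15 were higher and 1 lower in C1041G/+ mice, with 8 at an unadjusted edgeR p under 0.05. Their median log2 fold change by genotype there was -1.38, against -0.01 over all genes tested. Their part in Rgs6 was not tested.

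Genes upstream and downstream of the RGS proteins were counted from lists of receptors, G protein subunits, effectors, receptor kinases and RGS partners, which were also drawn up with earlier results known. Of 49 vasoactive receptors tested, 0 were higher and 2 lower in C1041G/+ ascending aorta, and 2 higher and 2 lower in C1041G/+ descending aorta, where 2.19% and 1.21% of all genes tested passed in the ascending and the descending aorta. Ptgfr, the prostaglandin F receptor, which couples to Gq, fell in C1041G/+ mice in the ascending aorta (7.34 ± 1.42 against 24.4 ± 8.30 CPM in wild type, -1.74 ± 0.26, adjusted p = 0.0015) and in the descending aorta (-1.51 ± 0.27, adjusted p = 0.0072). Uts2r, the urotensin II receptor, fell in the ascending aorta to 0.146 ± 0.0842 CPM in C1041G/+ mice, against 1.63 ± 0.883 CPM in wild type. Ptgir, the prostacyclin receptor, rose in the descending aorta of C1041G/+ mice (1.00 ± 0.22, adjusted p = 0.026), as did Agtr1b, an angiotensin II receptor (1.26 ± 0.30, adjusted p = 0.0495), and Adra2c, an alpha-2 adrenergic receptor, fell (-0.90 ± 0.19, adjusted p = 0.026). No receptor passed in edgeR among 44 tested with AGT-ASO, with 8 at an unadjusted p under 0.05, as were at least 1752 of 14981 genes.

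Between regions, 6 receptors were higher and 6 lower in the ascending aorta of C1041G/+ mice, and 15 higher and 5 lower in that of wild-type mice, of 49 tested. These 12 and 20 receptors compare with 9.92% and 11.1% of all genes tested. Adra2a, Avpr1a and Ptger3, receptors for noradrenaline, vasopressin and prostaglandin E2, were lower in ascending aorta in both genotypes, with log2 fold changes of -3.93 ± 0.30, -2.65 ± 0.35 and -2.16 ± 0.28 in C1041G/+ mice and -5.08 ± 0.32, -3.51 ± 0.36 and -1.87 ± 0.27 in wild-type mice. Agtr1b was lower there too, by -2.60 ± 0.33 in C1041G/+ and -1.66 ± 0.35 in wild-type mice (adjusted p = 2.5e-05 and 0.0028). S1pr3, a receptor for sphingosine 1-phosphate, was higher there, by 1.24 ± 0.36 in C1041G/+ and 2.86 ± 0.40 in wild-type mice (adjusted p = 0.036 and 8.1e-05).

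Of the 13 alpha subunits, 1 was higher and 0 lower in the ascending aorta of C1041G/+ mice, and 1 higher and 2 lower in that of wild-type mice. These and the counts below compare with 9.92% and 11.1% of all genes tested in C1041G/+ and wild-type mice. Gnao1, which encodes Go, a class that R7 proteins act on, was the higher one in C1041G/+ (0.87 ± 0.09, adjusted p = 3.5e-06) and wild-type mice (1.20 ± 0.09, adjusted p = 6.6e-08). The lower ones in wild-type mice were Gna11 (-0.21 ± 0.06, adjusted p = 0.024) and Gna14 (-1.25 ± 0.37, adjusted p = 0.035), both of the Gq class. Of 11 beta and gamma subunits, 2 were higher and 0 lower in each genotype: Gng8 in both, Gng4 in C1041G/+ and Gng2 in wild-type mice. Of 20 effectors, 2 were higher and 1 lower in C1041G/+ mice (Kcnj5 and Plcb2 higher, Adcy2 lower), and 2 higher and 0 lower in wild-type mice (Kcnj5 and Plcb1). Of 10 RGS partners, 0 were higher and 1 lower in C1041G/+ mice, and 1 higher, Axin2, and 1 lower in wild-type mice. The lower one was Rgs7bp, the membrane anchor of the R7 subfamily (-0.77 ± 0.22, adjusted p = 0.039, in C1041G/+ and -0.84 ± 0.22, adjusted p = 0.022, in wild-type mice). Of 8 receptor kinases and arrestins, 1 was higher and 0 lower in each genotype, the kinase Grk3, in C1041G/+ (0.65 ± 0.12, adjusted p = 0.0015) and wild-type mice (0.68 ± 0.12, adjusted p = 0.00077).

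Outside the receptors, 1 gene of these lists passed between genotypes: Axin2, a scaffold of Wnt signalling with an RGS-like domain, fell in C1041G/+ ascending aorta (-0.74 ± 0.17, adjusted p = 0.033). The 13 alpha subunits, 11 beta and gamma subunits, 20 effectors and 8 receptor kinases and arrestins tested had no gene that passed in edgeR by genotype in either region. At an unadjusted p under 0.05 there were 4, 1, 4 and 3 in the ascending aorta and 1, 0, 4 and 0 in the descending aorta, in that order of lists. Their medians were between -0.05 and 0.09 on the log2 scale. Over all 15645 genes, 2783 had an unadjusted edgeR p of 0.06 or less in the ascending aorta. In the descending aorta 2378 had one of 0.083 or less.

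The genes whose 6 group means ran most like those of the 3 members with the widest ranges were found among 13046 protein-coding genes, by the root mean square (RMS) difference of log2 CPM after centring each gene. For Rgs5 these were Hmcn2 (0.36), Tceal6 (0.36) and Apoc1 (0.38). Hmcn2 averaged 36.1 ± 8.94 CPM in C1041G/+ descending and 35.5 ± 7.96 CPM in wild-type descending aorta. Unlike Rgs5, its mean was not lower in the mutant there. Apoc1 had SDs near its means, at 0.844 ± 0.838 CPM in C1041G/+ ascending and 5.02 ± 4.35 CPM in wild-type descending aorta. Tceal6 averaged 3.20 ± 0.464 CPM in C1041G/+ ascending, 5.53 ± 0.661 CPM in wild-type ascending, 10.6 ± 0.998 CPM in C1041G/+ descending and 22.9 ± 1.61 CPM in wild-type descending aorta. For Rgs17 they were Gsc (0.18), Armc3 (0.26) and Tmem215 (0.40), and for Rgs16 Sept3 (0.17), Fam184a (0.24) and Slpi (0.27), of which several lie near 1 CPM. Gsc, a homeobox gene, averaged 3.0 ± 1.1 CPM in C1041G/+ descending and 0.824 ± 0.526 CPM in wild-type descending aorta. These are likenesses over 6 group means and were not tested.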

How the data were processed

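The deposited files hold raw whole-number counts per Ensembl gene, made by the authors, 1 file per library. The submitters' processing notes name fastp, STAR 2.6.1d and the build mm10. They name no counting tool, strand setting or annotation release. Names and exon lengths came from GENCODE M21 on the same build, which named 99.93% of identifiers.

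The 16 untreated libraries (15645 genes, 12 residual degrees of freedom) and the 10 ASO libraries (14981 genes, 8 degrees of freedom) were fitted apart with edgeR 4.0.16 in R 4.3.3, using TMM factors, filterByExpr by group, and two-sided robust quasi-likelihood tests adjusted by Benjamini-Hochberg over all genes tested. Alternatives used DESeq2 1.42.0 and limma 3.58.1. The fit was tested on simulated data. The labels do not state that libraries of a group came from separate animals, so p-values measure the spread between libraries, which may be technical. No pair of libraries of a group agreed within sampling noise. The numbers of the libraries recur across regions and were taken as mouse numbers that pair the libraries, which is an assumption. The 8 same-number pairs correlated at 0.145 to 0.286 after group means were removed, other pairs at a mean of -0.03. Of the 8 ascending libraries, 5 correlated best with the descending library of their own number. Wild-type ascending libraries 1, 3 and 7 correlated more with a C1041G/+ descending library (0.146, 0.235 and 0.227) than with their own number (0.145, 0.173 and 0.182).

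Members and lists were chosen with earlier results of these data known. Named genes were all members, other RGS genes that passed, and up to 4 genes per list and comparison by smallest p among those that passed. Receptors so named for region were given in both genotypes.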

Additional observations from a re-analysis of the deposited data

Results flagged for a closer look

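Of 60 combinations of member and group checked for a library far from its group, 1 was met: Rgs4 was at 192 CPM in control ASO library 8, against 87.7 to 111 CPM in the other 4 control ASO libraries. The gap to the nearest library was 0.772 of the group's whole range, above the critical value of 0.71 for 5 libraries. Chance flags about 1 in 20 groups.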

How the results depend on the processing

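Of 150 recomputations of the 11 member results that passed, 138 passed again, 12 missed the threshold and 0 changed sign. The 12 losses concern Rgs3, Rgs16 and Rgs17 between regions, given beside those results. The count of members that passed by genotype in the ascending aorta was 2 in DESeq2 (with 779 genes, against 342 in edgeR) and 1 to 2 with each library left out. It was 2 for region in C1041G/+ mice without both libraries of mouse 2, a setting chosen after seeing the data, since that mouse's ascending library was high in lymphocyte markers. For the interaction it was 1 with the fixed replicate block, and the block changed no other call than those given for Rgs2, Rgs4 and Rgs17. For AGT-ASO it was 2 in DESeq2, 1 with no count filter and 0 to 1 with each library left out. The genes that passed there rose from 10 in the main fit to 289 in DESeq2. They were 147 with no count filter and 180 without control ASO library 8. The count fell to 0 without AGT-ASO library 15, 18 or 19, and without control ASO library 12, 13 or 16. It was 1 without control ASO library 17, 9 without AGT-ASO library 20 and 40 without AGT-ASO library 14. The cause was not tested.

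Sign changes were seen in 41 recomputations of results that had not passed. By genotype in the ascending aorta Rgs16 was -0.12 with the random replicate block and -0.45 without mouse 2, and Rgs12 was 0.074 with the heart muscle score and 0.0079 without mouse 2. By genotype in the descending aorta Rgs11 was 0.039 with the random replicate block. With the heart muscle score the AGT-ASO differences were -0.060 for Rgs7, 0.035 for Rgs11 and 0.21 for Rgs12. With each library left out, ranges crossed 0 as follows. By genotype in the ascending aorta they were -0.097 to 0.022 for Rgs3, -0.18 to 0.026 for Rgs12 and -0.45 to 0.30 for Rgs16. By genotype in the descending aorta they were -0.32 to 0.010 for Rgs4, -0.0031 to 0.34 for Rgs10, -0.22 to 0.22 for Rgs11 and -0.078 to 0.22 for Rgs12. By region in wild-type mice they were -0.27 to 0.0011 for Rgs4, -0.11 to 0.24 for Rgs10, -0.34 to 0.10 for Rgs11, -0.096 to 0.11 for Rgs12 and -0.34 to 0.35 for Rgs17. By region in C1041G/+ mice Rgs12 ran from -0.29 to 0.0027, and the interaction of Rgs10 ran from -0.043 to 0.30. For AGT-ASO the ranges were -0.17 to 0.080 for Rgs5 and -0.087 to 0.049 for Rgs12. All members passed the count filters, so the test planned for filtered members had no case and was not run. Depth limits Rgs16, at 1 to 64 counts in a library.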
